A study of Homo sapiens with 56 samples.

Results

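The 7 genes followed in PEO1 and PEO4 cells make, receive or break down prostaglandins: PTGS1, PTGS2, PTGES, PTGIS, PTGER2, PTGER4 and HPGD. They were chosen by symbol, through every probe set that the array's annotation assigns to them. This gave 16 of 22215 tested probe sets and 7 of 11963 named genes: 3 probe sets each for PTGS1 and PTGIS, 4 for HPGD, 2 each for PTGES and PTGER4, and 1 each for PTGS2 and PTGER2. None of the 16 was shared with another gene.

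Prostaglandins are short-lived lipid signals made from arachidonic acid. The cyclooxygenases PTGS1 and PTGS2 make the common precursor, which PTGES turns into prostaglandin E2 and PTGIS into prostacyclin. Prostaglandin E2 acts on nearby cells through G-protein-coupled receptors, of which PTGER2 and PTGER4 raise cyclic AMP, and HPGD starts its breakdown. In the ovary PTGS2 is best known as the gene that gonadotropins induce before ovulation, and in many epithelial tumours its level is raised.

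RNA was measured on 56 Affymetrix expression arrays from 2 established high-grade serous ovarian carcinoma lines that carry estrogen receptor alpha and come from the same patient. PEO1 and PEO4 were each kept for 3 days in phenol-red-free medium with stripped serum and then exposed for 3 h to ethanol vehicle, to 1 nM estradiol (E2), to 1 µM of an antagonist alone or to the same antagonist with E2. The antagonists were fulvestrant, labelled ICI, and 4-hydroxytamoxifen (4OHT). Cells taken at 0 h received no treatment. Each of the 14 groups held 4 arrays, and all groups shared the hormone deprivation. ICI is a steroidal pure antagonist that lowers the receptor protein, whereas 4OHT, a nonsteroidal triphenylethylene, is an antagonist in some tissues and an agonist in others. The labels do not say whether the 4 arrays of a group came from separate cultures, so the p-values measure the spread between these arrays, which may be technical. In bulk RNA, fewer responding cells and less RNA per cell cannot be told apart.

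Values are log2 levels made by RMA, a method that gives no detection call, so a low value cannot be called absent. Array medians ran from 7.401 to 7.484 in PEO1 and from 7.84 to 7.91 in PEO4, and the lines were treated as normalized apart. All 9 markers of ovarian epithelial carcinoma lay above the line's median in both lines, against 1 of 6 fibroblast, 0 of 4 endothelial, 0 of 4 measured leukocyte and 0 of 4 hepatocyte markers. The gap between the 3′ and 5′ ACTB control probe sets, which widens with RNA degradation or short labelled product, was -0.25 to 0.14 in PEO1 and 0.24 to 3.41 in PEO4. It was widest on PEO4 ICI replicate 1 (3.41), 0 h replicate 4 (2.28), and 4OHT+E2 replicates 4 (1.74) and 3 (1.07), with E2 replicate 3 close behind (1.02). The same gap for GAPDH was wide on ICI replicate 1 (1.74) and 0 h replicate 4 (0.86), while on 4OHT+E2 replicates 3 (0.037) and 4 (0.065) it lay within the 0.001 to 0.117 of the other PEO4 arrays. The main PEO4 results of the members that use these arrays are given with and without them. For the other genes listed below, the named values come from all arrays. At most the counts of their calls are given without the arrays of wide gap. In PEO4 the ACTB gap was also wider on every E2 array (0.68 to 1.02) than on every vehicle array (0.24 to 0.57). The part of this gap in the PEO4 differences between E2 and vehicle, or in the E2 differences between lines, was not tested. Differences below are log2, first group minus second, ± SE from limma, with n = 4 arrays per group. A probe set was called when its Benjamini-Hochberg adjusted p over all 22215 probe sets was under 0.05. Comparisons with the same vehicle or E2 arrays are not independent of one another.

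Of 256 pairs of a member probe set and a comparison within a line, 10 were called, or 3.91%. Over all probe sets and the same comparisons the share was 3.07%, so the members as a whole lay near the background. The calls came from 3 probe sets: 6 from PTGS2, 3 from 204897_at of PTGER4 and 1 from 210367_s_at of PTGES. The other 13 probe sets were called in no comparison within a line, and the largest difference not called was 0.43. PTGS2 and PTGER4 were therefore followed array by array.

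**Figure D1:**
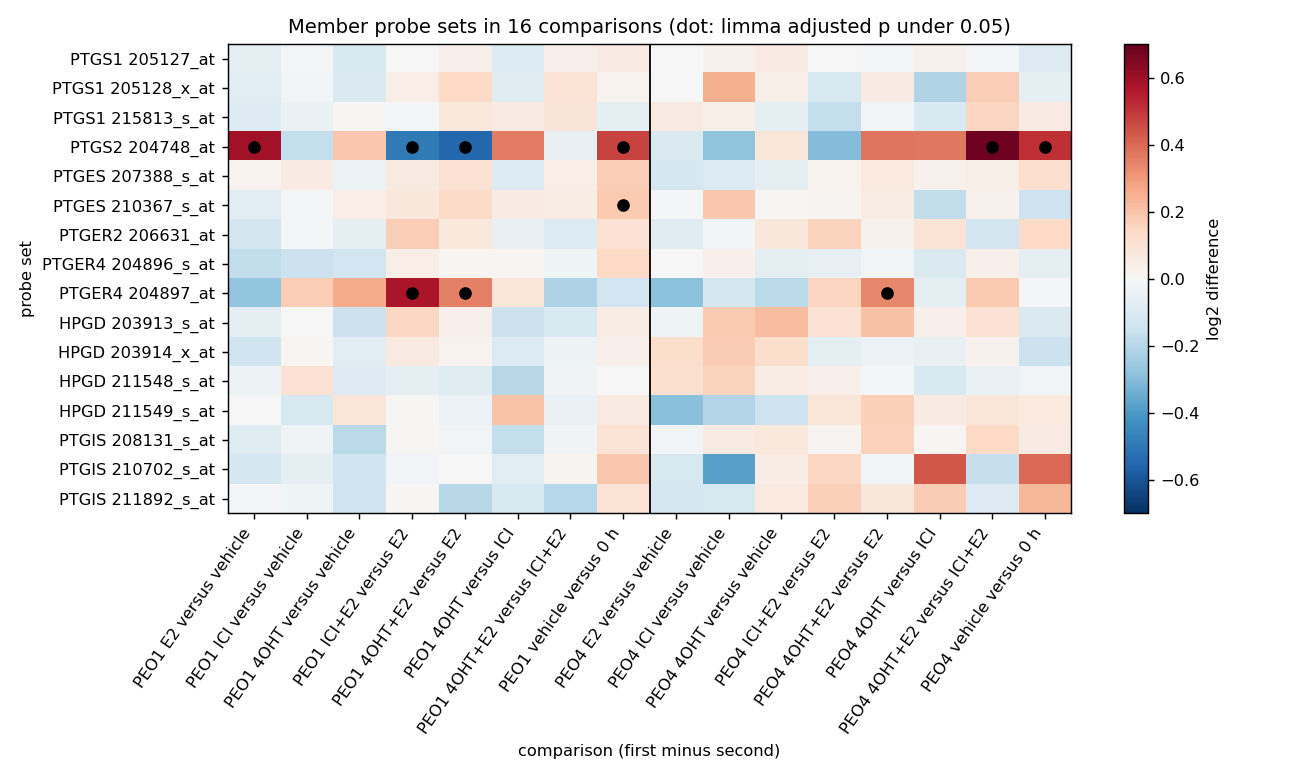
Log2 differences of the 16 member probe sets (rows) in 8 comparisons of PEO1 and 8 of PEO4 (columns, first group minus second), with the colour scale in log2 units and a dot where limma's adjusted p was under 0.05. The 10 dots lie on PTGS2, PTGER4 204897_at and PTGES 210367_s_at, and the other 13 rows carry none.

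PTGS2 (204748_at), the inducible cyclooxygenase, was the member with the most calls and the largest differences. In PEO1 it rose with E2 and was lower when either antagonist accompanied E2. In PEO4 E2 gave no such rise, and the highest values came from 4OHT given with E2. In both lines it rose over 3 h of vehicle alone. The stretch before its transcription start is shown with the searched strings that were found in it. The RefSeq sequence of the 250 bases upstream (GRCh38.p14, chr1:186680424-186680673, minus strand) is printed 5′ to 3′. Capitals mark a TTNNGNAA match of the C/EBP type 133 to 126 bases before the start, the cAMP-response core TGACG read on the opposite strand at 58 to 54, and a TATAAA box at 32 to 27. Only exact matches are marked. The lower-case gggactaccc is close to the NF-kB consensus searched, GGGRNNYYCC, but does not match it exactly, so an unmarked stretch is not shown to lack a site.
PTGS2: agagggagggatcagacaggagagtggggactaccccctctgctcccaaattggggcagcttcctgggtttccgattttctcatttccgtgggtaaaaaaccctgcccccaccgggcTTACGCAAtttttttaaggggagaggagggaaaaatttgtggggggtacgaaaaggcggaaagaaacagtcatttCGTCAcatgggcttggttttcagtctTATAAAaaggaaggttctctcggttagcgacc

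Among 35116 RefSeq windows of the same length, searched on both strands, 33.2% held TTNNGNAA, 21.2% TGACG and 10.7% TATAAA, so each is a common string. The full palindromic estrogen response element GGTCANNNTGACC was in 0.0399% of all windows and in 0 of the 8 windows of the 6 members with a sequence. Its shorter core TGACC was in 32.6% of windows and was not found in this one. A match describes letters, not a bound site.

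In PEO1 the 4 vehicle arrays read 5.61, 5.66, 5.76 and 5.41 for PTGS2, and the 4 E2 arrays 6.21, 6.28, 6.20 and 6.11. Every E2 array lay above every vehicle array, and indeed above every other PEO1 array. The difference was 0.59 ± 0.10 (1.5-fold, 95% interval 0.38 to 0.80, limma adjusted p = 0.00123). It was the only 1 of the 16 member probe sets called for E2 in PEO1, where 1.5% of all probe sets were called. It passed in all 14 alternatives in which it was tested, at 0.52 to 0.64. The filter on dim probe sets did not test it. PTGS2 lay among the dimmest 40 percent by mean level in both lines, under cuts of 6.76 in PEO1 and 7.19 in PEO4.

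**Figure D2:**
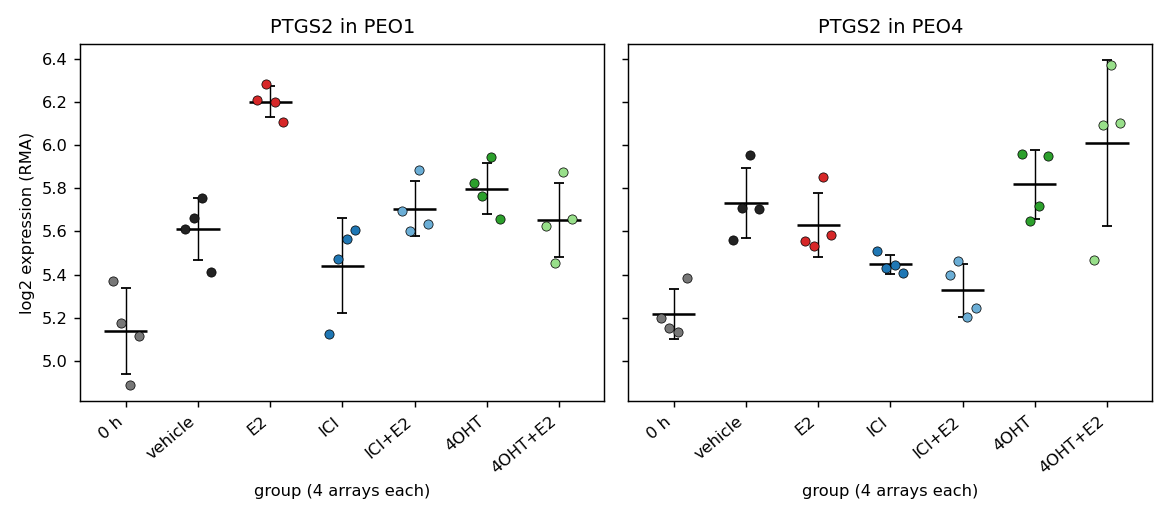
PTGS2 (204748_at) log2 expression in the 7 groups of PEO1 (left) and PEO4 (right), with 4 arrays per group as points, the mean as a bar and the SD as whiskers. In PEO1 the 4 E2 arrays, at 6.11 to 6.28, stand above the other groups; in PEO4 the E2 arrays lie among the vehicle arrays, and 3 of the 4 4OHT+E2 arrays are the highest.

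With ICI added to E2 the PEO1 arrays read 5.70, 5.60, 5.89 and 5.63, and with 4OHT added 5.62, 5.46, 5.88 and 5.66. Neither set overlapped the E2 arrays, and both spread around the vehicle level. PTGS2 fell by 0.50 with ICI+E2 against E2 (SE 0.10, limma adjusted p = 0.00589) and by 0.55 with 4OHT+E2 against E2 (SE 0.10, adjusted p = 0.000981). These counted among 2 of 16 member probe sets called in each comparison, against 1.88% and 9.99% of all probe sets. Both calls held in all 14 alternatives that tested them.

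Given alone in PEO1, ICI read 5.13, 5.47, 5.57 and 5.61, and 4OHT 5.83, 5.76, 5.94 and 5.66. Both sets overlapped the vehicle arrays, and limma called neither: -0.17 ± 0.10 for ICI (adjusted p = 0.9998) and 0.19 ± 0.10 for 4OHT (adjusted p = 0.34). No member probe set was called for either drug alone in PEO1, where 0.0585% of all probe sets were called for ICI and 4.21% for 4OHT.

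In PEO4 the vehicle arrays read 5.56, 5.71, 5.95 and 5.71, and the E2 arrays 5.56, 5.53, 5.85 and 5.59. These 2 sets overlapped almost fully. The difference was -0.10 ± 0.13, with a 95% interval of -0.36 to 0.16 (limma adjusted p = 0.99) that ends below the lower bound of the PEO1 rise. No member was called for E2 in PEO4, where 1.44% of all probe sets were.

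The test of the difference itself, PEO4 minus PEO1, gave -0.69 ± 0.17 for the PTGS2 response to E2. Its limma adjusted p of 0.04995 lay at the threshold, and it was 1 of 16 members called where 0.32% of all probe sets were. The size stayed between -0.76 and -0.62 when each of 16 arrays was left out. The call, however, held in only 3 of these 16 fits, those without PEO1 vehicle replicate C, PEO4 vehicle replicate 1 or PEO4 E2 replicate 3, and the adjusted p otherwise ran from 0.0545 to 0.168. With the replicate labels as a block it was 0.0538.

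Alone in PEO4, ICI read 5.51, 5.43, 5.44 and 5.41 and 4OHT 5.96, 5.65, 5.72 and 5.95. All ICI arrays lay below all vehicle arrays, while the 4OHT arrays overlapped them. Against vehicle, PTGS2 differed by -0.28 ± 0.13 with ICI (limma adjusted p = 0.227; -0.30 and 0.355 without 0 h replicate 4 and ICI replicate 1) and by 0.09 ± 0.13 with 4OHT (adjusted p = 0.803), and neither was called.

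ICI with E2 in PEO4 read 5.40, 5.46, 5.20 and 5.25, below all 4 E2 arrays, but the difference of -0.30 ± 0.13 was not called (limma adjusted p = 0.339). No member was called there, against 1.44% of all probe sets. 4OHT with E2 read 5.47, 6.09, 6.37 and 6.10. Replicate 1 lay below every E2 array of the line and the other 3 lay above them all.

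Against E2, 4OHT+E2 gave PTGS2 a difference of 0.38 ± 0.13 in PEO4 that was not called (limma adjusted p = 0.101). Without 4OHT+E2 replicate 1 it was 0.56 (adjusted p = 0.00064), and without replicates 3 and 4, which had wide ACTB but not GAPDH gaps, 0.15 (adjusted p = 0.675). The part of RNA quality in this value was not tested beyond leaving these arrays out.

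The response to adding 4OHT to E2 had opposite signs in the lines, -0.55 in PEO1 and 0.38 in PEO4. The difference, 0.92 ± 0.17 (1.90-fold, limma adjusted p = 0.000496), was called in all 24 alternatives, at 0.70 to 1.10. PTGS2 was 1 of 16 members called there, against 1.4% of all probe sets. The lowest of these values, 0.70 with an adjusted p of 0.0273, was the fit without PEO4 4OHT+E2 replicates 3 and 4. For ICI alone and 4OHT alone the responses were not called as differing, at -0.11 ± 0.17 (95% interval -0.45 to 0.22) and -0.10 ± 0.17 (-0.44 to 0.24). No member was called for either difference, where 0.063% and 0.783% of all probe sets were.

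The antagonists were set against each other at the same dose and time in 4 comparisons. Without E2, PTGS2 was higher with 4OHT than with ICI on all arrays of each line, with no overlap, but neither difference was called. It was 0.36 ± 0.10 in PEO1 (95% interval 0.14 to 0.57, limma adjusted p = 0.0705) and 0.37 ± 0.13 in PEO4 (0.11 to 0.63, adjusted p = 0.163). Without 0 h replicate 4 and ICI replicate 1 the PEO4 value was 0.39 (adjusted p = 0.218). Array weights, which downweight noisy arrays, called the PEO4 difference at 0.31 (adjusted p = 0.0499). No member was called in these, against 2.39% and 1.56% of all probe sets.

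With E2 present, 4OHT and ICI gave PTGS2 values in PEO1 that differed by -0.05 ± 0.10 (95% interval -0.27 to 0.16, limma adjusted p = 0.815). No member was called in that comparison, against 2.71% of all probe sets. In PEO4 PTGS2 was higher with 4OHT+E2 than with ICI+E2 by 0.68 ± 0.13 (1.60-fold, adjusted p = 0.00123), and every 4OHT+E2 array, the lowest at 5.47, exceeded the highest ICI+E2 array at 5.46. It was the 1 member called there, against 3.21% of all probe sets. Without 4OHT+E2 replicates 3 and 4 the difference was 0.45 and no longer called (adjusted p = 0.111), while it held when any single array was left out.

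**Figure D3:**
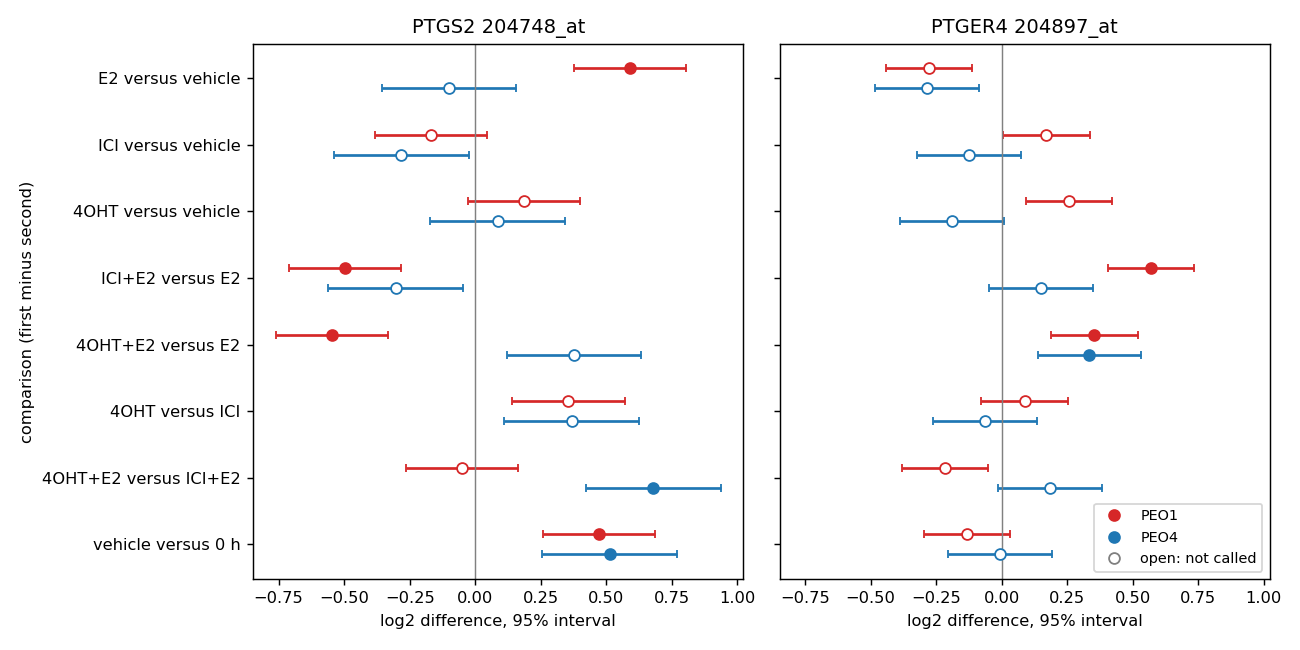
Log2 differences with 95% intervals for PTGS2 (left) and PTGER4 204897_at (right) in 8 comparisons, PEO1 in red and PEO4 in blue, with filled points where limma's adjusted p was under 0.05. For PTGS2 the E2 interval of PEO1 (0.38 to 0.80) and that of PEO4 (-0.36 to 0.16) do not meet, and the 4OHT+E2 versus E2 points lie on opposite sides of 0.

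Before any treatment PTGS2 had its lowest group mean in each line, although single 0 h arrays overlapped the ICI arrays in PEO1 and the ICI+E2 arrays in PEO4. The 0 h arrays read 5.37, 5.18, 4.89 and 5.12 in PEO1 and 5.20, 5.15, 5.13 and 5.39 in PEO4, below every vehicle array of the same line. Over 3 h of vehicle it rose by 0.47 ± 0.10 in PEO1 (1.39-fold, limma adjusted p = 0.00599) and by 0.51 ± 0.13 in PEO4 (1.43-fold, adjusted p = 0.0134). Members called numbered 2 of 16 in PEO1 and 1 of 16 in PEO4, against 5.66% and 4.89% of all probe sets. The PEO4 rise was 0.44 and not called without vehicle replicate 3 (adjusted p = 0.0677), and 0.57 without 0 h replicate 4 and ICI replicate 1 (adjusted p = 0.0105).

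Ordered by group mean, PEO1 ran from 0 h (5.14 ± 0.20, SD) through ICI (5.44), vehicle (5.61), 4OHT+E2 (5.65), ICI+E2 (5.70) and 4OHT (5.80) to E2 (6.20 ± 0.07). The steps from 0 h to ICI and from 4OHT to E2 exceeded the larger SD of the neighbouring groups, and the other steps did not. PEO4 ran from 0 h (5.22 ± 0.12, SD) through ICI+E2 (5.33), ICI (5.45), E2 (5.63), vehicle (5.73) and 4OHT (5.82) to 4OHT+E2 (6.01 ± 0.38). Only the step from ICI to E2 exceeded the larger SD.

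The genes whose lead probe sets followed PTGS2 most closely were ranked by the lower of the lines' Pearson correlations over the 28 arrays of each, among 11962 genes. They were EDN1, the vasoconstrictor peptide endothelin (0.86 in PEO1 and 0.76 in PEO4), TLCD3A (0.78 and 0.72), COQ10B (0.72 and 0.77), the muscle ankyrin repeat gene ANKRD1 (0.74 and 0.72) and the bone morphogenetic protein BMP2 (0.71 and 0.77). All points share the same arrays and treatments, and the values are given as a description.

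PTGS1, the constitutive cyclooxygenase, was called in none of the 16 comparisons. Its 3 probe sets ranged from -0.21 to 0.25, with a smallest limma adjusted p of 0.154 for 205128_x_at with ICI in PEO4. There the ICI arrays read 10.00, 9.82, 9.75 and 9.50 and the vehicle arrays 9.66, 9.42, 9.49 and 9.50, so the groups overlapped. Without ICI replicate 4 the difference was 0.34 (adjusted p = 0.0244), and the highest of these arrays, replicate 1, had the widest ACTB gap. Without that array and 0 h replicate 4 the difference was 0.17 (adjusted p = 0.359).

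The lines stood far apart in PTGS1 on 205128_x_at and 215813_s_at. Under vehicle these read 6.08 ± 0.10 and 5.83 ± 0.16 in PEO1 (SD, n = 4) and 9.52 ± 0.10 and 9.27 ± 0.07 in PEO4. The gaps of 3.44 and 3.43 compare with a median gap of 0.45 over all probe sets. The third probe set, 205127_at, differed by 0.42. No other member showed a gap of this size: PTGIS differed by 1.30 to 1.95 on its 3 probe sets, PTGER2 by 1.07, PTGES by 0.81 and 0.85, PTGER4 by 0.43 and 0.62, HPGD by 0.02 to 0.65 and PTGS2 by 0.12. Levels were not tested between the lines.

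PTGES, the inducible terminal synthase of prostaglandin E2, was called once. On 210367_s_at the PEO1 0 h arrays read 7.87, 7.97, 7.97 and 7.94 and the vehicle arrays 8.12, 8.13, 8.15 and 8.08, with no overlap. PTGES rose by 0.19 ± 0.05 over the 3 h of vehicle (1.14-fold, limma adjusted p = 0.0194). Its other probe set, 207388_s_at, read 7.11 to 7.22 at 0 h and 7.29 to 7.35 under vehicle, a difference of 0.17 ± 0.06 that was not called (adjusted p = 0.0947). The call was lost without vehicle replicate A (adjusted p = 0.0523), vehicle replicate C (0.0645) or 0 h replicate A (0.0721), and after quantile normalization (0.15, adjusted p = 0.0843).

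With estradiol or an antagonist PTGES stayed within -0.17 to 0.19 in both lines, and no such difference was called. In PEO1 210367_s_at with 4OHT+E2 against E2 gave 0.13 ± 0.05 (limma adjusted p = 0.0752). Without 4OHT+E2 replicate C it was 0.16 (adjusted p = 0.0319). In PEO4 the 2 probe sets ran against each other over the 28 arrays (r = -0.45), whereas in PEO1 they ran together (r = 0.49). The highest PEO4 value of 210367_s_at, 9.46, was ICI replicate 1, the array with the widest ACTB gap, and 207388_s_at was at its lowest there, 7.84.

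The genes most like PTGES 210367_s_at by the same measure were the unconventional myosin MYO10 (0.66 in PEO1 and 0.73 in PEO4), the adaptor GRB10 (0.64 and 0.67), asparagine synthetase ASNS (0.62 in each), GPN1 (0.65 and 0.61) and the lipid phosphatase PLPP1 (0.74 and 0.60).

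PTGIS, prostacyclin synthase, was not called either. On 208131_s_at 4OHT in PEO1 read 7.78, 7.95, 7.98 and 7.87 against 8.10, 8.10, 8.11 and 8.01 under vehicle. The 4OHT arrays were the lower set without overlap, by -0.19 ± 0.06 (limma adjusted p = 0.0574), and without 4OHT replicate C by -0.22 (adjusted p = 0.0487). It was also called with trend and robust variance (adjusted p = 0.0495), the filter on dim probe sets (0.0287), 1 probe set per gene (0.0416) and array weights (0.00927). Quantile normalization, the replicate block and the fit of only the compared groups did not call it. The other 2 probe sets were not called for 4OHT in PEO1.

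The largest difference of any member that was not called was PTGIS 210702_s_at in PEO4, 4OHT against ICI, at 0.43 ± 0.14 (limma adjusted p = 0.127). Its ICI arrays read 5.9965, 6.70, 6.54 and 6.96, the lowest being replicate 1 with its wide ACTB gap, and its 4OHT arrays 7.11, 7.01, 6.94 and 6.88. Without replicate 1 and 0 h replicate 4 the difference was 0.25 (adjusted p = 0.403). Without ICI replicate 4 the difference was 0.57 (adjusted p = 0.0196), and ICI against vehicle changed from -0.38 (adjusted p = 0.159) to -0.52 (adjusted p = 0.0267). Without ICI replicate 1 and 0 h replicate 4, ICI against vehicle was -0.19 (adjusted p = 0.46). Against 0 h, vehicle gave 0.40 ± 0.14 (adjusted p = 0.103), 0.49 without 0 h replicate 3 (adjusted p = 0.0469) and 0.31 without the arrays of wide ACTB gap (adjusted p = 0.0957). Further calls of PTGIS appeared when 1 array was left out. On 211892_s_at, 4OHT+E2 in PEO1 without replicate C gave -0.24 against E2 (adjusted p = 0.0209) and -0.25 against ICI+E2 (adjusted p = 0.0326). In PEO4 208131_s_at gave 0.20 for 4OHT+E2 against E2 without E2 replicate 2 (adjusted p = 0.0449). Without 4OHT+E2 replicates 3 and 4 that PEO4 difference was 0.19 and not called (adjusted p = 0.123).

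PTGER4, which encodes the prostaglandin E2 receptor EP4, ran the other way from PTGS2 when an antagonist met E2 in PEO1. Its probe set 204897_at had its lowest mean with E2 in each line. In PEO1 it was called higher when ICI or 4OHT accompanied E2, and in PEO4 when 4OHT did. The 250 bases before its start are shown for comparison with those of PTGS2 (RefSeq, GRCh38.p14, chr5:40679665-40679914, plus strand). Capitals mark the only string found among the 8 motifs searched, a match to the NF-kB consensus 244 to 235 bases before the start, which 9.96% of all windows also held.
PTGER4: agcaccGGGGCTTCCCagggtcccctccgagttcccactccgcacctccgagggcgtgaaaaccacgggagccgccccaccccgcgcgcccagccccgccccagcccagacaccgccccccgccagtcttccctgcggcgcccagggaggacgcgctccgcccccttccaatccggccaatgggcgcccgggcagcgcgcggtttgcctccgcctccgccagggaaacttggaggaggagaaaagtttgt

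This stretch holds neither TATAAA nor TGACG nor TGACC, and G and C make up 72.8% of it against 50.4% for PTGS2. The AP-1 string TGANTCA (6.57% of all windows) and the full cAMP response element TGACGTCA (1.65%) were in no member's window. TGACC was found in 1 window each of PTGS1 and HPGD, and TGACG also in 1 each of PTGER2 and HPGD.

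In PEO1 the E2 arrays of 204897_at read 6.70, 7.10, 7.01 and 6.79. ICI+E2 read 7.51, 7.38, 7.56 and 7.43, entirely above them, and 4OHT+E2 read 7.27, 7.29, 7.38 and 7.07, overlapping them by 1 array. PTGER4 was higher with ICI+E2 than with E2 by 0.57 ± 0.08 (1.49-fold, limma adjusted p = 4.23e-05), a call that held in all 15 alternatives. With 4OHT+E2 it was higher than with E2 by 0.35 ± 0.08 (1.28-fold, adjusted p = 0.00524), a call lost when only these 2 groups were fitted (adjusted p = 0.0857).

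PTGER4 in vehicle-treated PEO1 cells read 7.22, 7.34, 7.11 and 7.05, overlapping the E2 arrays, and E2 against vehicle gave -0.28 ± 0.08, which was not called (limma adjusted p = 0.0847). Without E2 replicate B it was -0.34 (adjusted p = 0.0287). ICI alone read 7.35 on all 4 arrays and differed from vehicle by 0.17 ± 0.08 (adjusted p = 0.9998). 4OHT alone read 7.41, 7.52, 7.54 and 7.27 and differed by 0.26 ± 0.08 (adjusted p = 0.0658). Without vehicle replicate B the latter was 0.31 (adjusted p = 0.0417) and without 4OHT replicate D 0.31 (adjusted p = 0.0345). In all, 5 of 15 alternatives called this 4OHT difference.

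**Figure D4:**
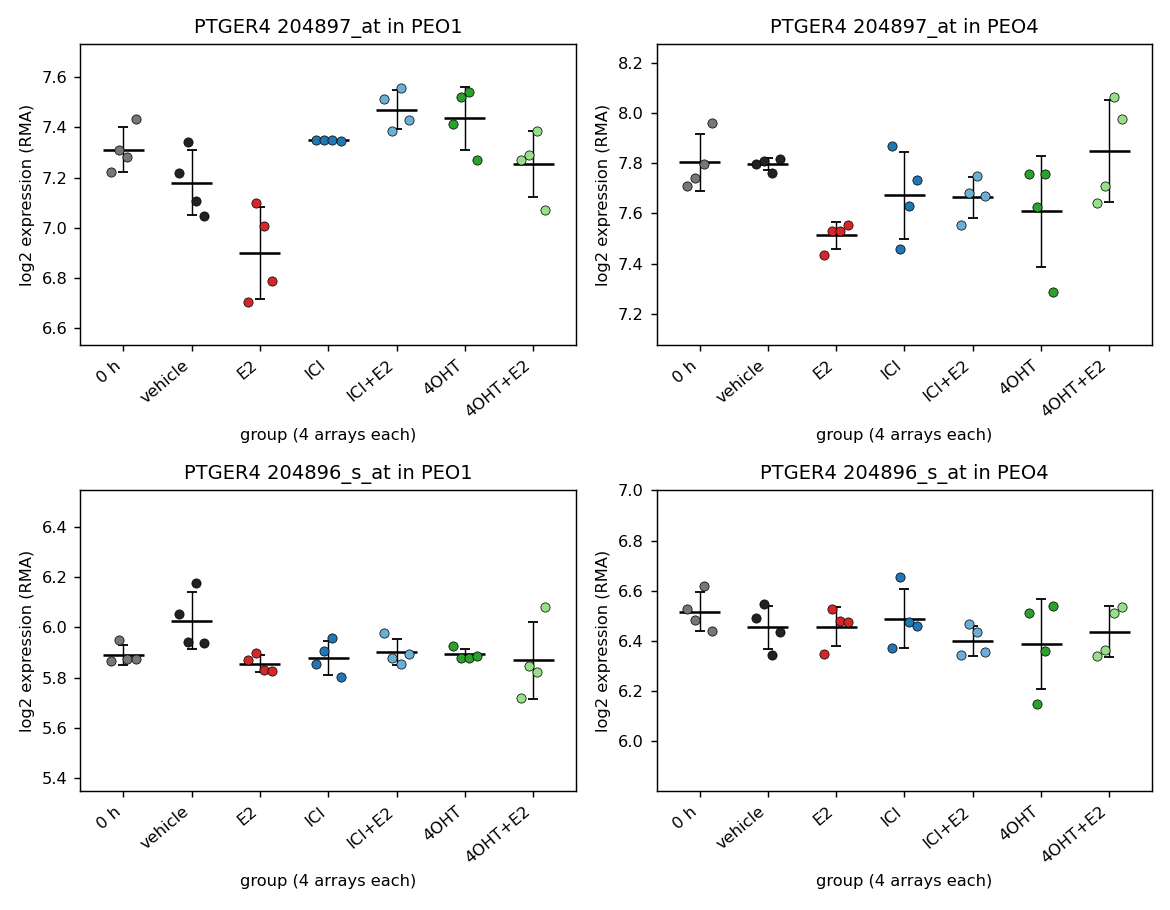
PTGER4 log2 expression by group on probe sets 204897_at (top) and 204896_s_at (bottom) in PEO1 (left) and PEO4 (right), with 4 arrays per group as points, the mean as a bar and the SD as whiskers; each panel has its own axis range. On 204897_at the E2 groups have the lowest means, 6.90 in PEO1 and 7.51 in PEO4, and on 204896_s_at the group means span 5.86 to 6.03 and 6.39 to 6.52.

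In PEO4 the E2 arrays of 204897_at read 7.44, 7.53, 7.53 and 7.55 and the vehicle arrays 7.80, 7.81, 7.76 and 7.82. They did not overlap, and the difference of -0.28 ± 0.10 matched that of PEO1 in size, yet it was not called (limma adjusted p = 0.221). The fit over these 2 groups alone called it (adjusted p = 0.0109), as did array weights (-0.28, adjusted p = 0.0381). The test of the E2 responses between lines gave -0.01 ± 0.13, with a 95% interval of -0.26 to 0.25.

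4OHT+E2 in PEO4 read 7.64, 7.71, 8.06 and 7.98, all above the E2 arrays, the highest 2 being replicates 3 and 4 with wide ACTB gaps. PTGER4 was higher than with E2 by 0.33 ± 0.10 (1.26-fold, limma adjusted p = 0.0452), the only 1 of 16 members called where 4.25% of all probe sets were. The call was lost without any 1 of 6 arrays, namely any E2 array or 4OHT+E2 replicates 3 or 4, at 0.26 to 0.35 and adjusted p from 0.0711 to 0.179. Without replicates 3 and 4 together it was 0.16 (adjusted p = 0.508), and with the replicate block 0.33 (adjusted p = 0.0526).

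ICI+E2 in PEO4 read 7.55, 7.68, 7.75 and 7.67. The lowest of these lay above the highest E2 array, but the difference of 0.15 ± 0.10 was not called (limma adjusted p = 0.627). ICI alone read 7.87, 7.46, 7.63 and 7.73 and 4OHT alone 7.76, 7.63, 7.76 and 7.29. Against vehicle they gave -0.12 ± 0.10 (adjusted p = 0.494) and -0.19 ± 0.10 (adjusted p = 0.321), and the members called numbered 0 in both, against 0.0765% and 3.93% of all probe sets. Without ICI replicate 1 and 0 h replicate 4 the ICI difference was -0.19 (adjusted p = 0.42).

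At 0 h PTGER4 read 7.22, 7.31, 7.28 and 7.43 in PEO1 and 7.71, 7.74, 7.80 and 7.96 in PEO4, overlapping the vehicle arrays of each line. Vehicle against 0 h gave -0.13 ± 0.08 in PEO1 (limma adjusted p = 0.419) and -0.01 ± 0.10 in PEO4 (adjusted p = 0.982), so PTGER4 was not called where PTGS2 rose.

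PTGER4 responses to 4OHT alone had opposite signs, 0.26 in PEO1 and -0.19 in PEO4, with a difference of -0.45 ± 0.13 that was not called (limma adjusted p = 0.0794). Without PEO1 4OHT replicate D it was -0.50 (adjusted p = 0.0492). Between the antagonists PTGER4 was not called in any of the 4 comparisons. With E2 present, 4OHT against ICI gave -0.22 ± 0.08 in PEO1 (95% interval -0.38 to -0.05, adjusted p = 0.138) and 0.18 ± 0.10 in PEO4 (-0.01 to 0.38, adjusted p = 0.379). Without PEO4 4OHT+E2 replicates 3 and 4 the latter was 0.01 (adjusted p = 0.992). Without E2 it gave 0.09 ± 0.08 (-0.08 to 0.25) and -0.06 ± 0.10 (-0.26 to 0.13).

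Ordered by mean, 204897_at in PEO1 ran from E2 (6.90 ± 0.18, SD) through vehicle (7.18), 4OHT+E2 (7.25), 0 h (7.31), ICI (7.35) and 4OHT (7.44) to ICI+E2 (7.47 ± 0.08). Only the step from E2 to vehicle exceeded the larger SD of the neighbours. In PEO4 it ran from E2 (7.51 ± 0.05, SD) through 4OHT (7.61), ICI+E2 (7.66), ICI (7.67), vehicle (7.797) and 0 h (7.803) to 4OHT+E2 (7.85 ± 0.20), and no step exceeded the larger SD.

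The second PTGER4 probe set did not follow the first. 204896_s_at was called in no comparison, and its correlation with 204897_at over the 28 arrays was -0.09 in PEO1 and 0.03 in PEO4. Which of them reports the receptor transcript better cannot be told from these values.

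PTGER2, the gene of the related receptor EP2, had group means of 8.45 to 8.62 in PEO1 and 9.51 to 9.73 in PEO4. Its differences lay within -0.13 to 0.17 in the 16 comparisons within lines, and its smallest limma adjusted p was 0.225. The largest difference was ICI+E2 against E2 in PEO1, 0.17 ± 0.06 (adjusted p = 0.264), and it was 0.24 without ICI+E2 replicate B (adjusted p = 0.0328). The same comparison in PEO4 gave 0.16 ± 0.06 (adjusted p = 0.29), with no overlap between the groups.

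HPGD, the dehydrogenase that inactivates prostaglandin E2, had low values on all 4 probe sets, from 2.78 to 4.97 in PEO1 and from 2.94 to 5.28 in PEO4, and no call. Its differences lay between -0.29 and 0.22. On 211549_s_at E2 in PEO4 read 4.93, 4.89, 4.97 and 4.64, below the vehicle arrays at 5.0044, 5.17, 5.28 and 5.14. The difference was -0.29 ± 0.08 (limma adjusted p = 0.0543).

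That HPGD difference was called without vehicle replicate 1 (-0.34, limma adjusted p = 0.0318), without E2 replicate 3 (-0.33, adjusted p = 0.0489), and without 0 h replicate 4 and ICI replicate 1 (-0.29, adjusted p = 0.0392), as well as with array weights (-0.32, adjusted p = 0.0141). The other 3 HPGD probe sets were not called for E2. In PEO4 203914_x_at and 211548_s_at lay on the other side of 0, at 0.12 and 0.11, and 203913_s_at was at -0.03. Over the 28 PEO4 arrays 211549_s_at correlated with these at -0.31, -0.48 and 0.04. On 203913_s_at, 4OHT+E2 against E2 in PEO4 was called without 4OHT+E2 replicate 1 (0.28, adjusted p = 0.0349) and with array weights (0.25, adjusted p = 0.0441). Without 4OHT+E2 replicates 3 and 4 that difference was 0.16 and not called (adjusted p = 0.469).

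In the 16 comparisons within lines, the medians of the 16 member probe sets lay between -0.09 and 0.08. Those of all probe sets lay between -0.03 and 0.02. The lowest was 4OHT in PEO1, at -0.09 against -0.03. For the 4OHT difference between the lines it was 0.14 against 0.03. Whether the set differed from all probe sets was not tested. For E2 the medians were -0.08 against -0.01 over all probe sets in PEO1, where 2 of the 16 members lay above 0, and -0.03 against 0.00 in PEO4. For 4OHT+E2 against E2 they were 0.03 against -0.01 in PEO1 and 0.06 against 0.00 in PEO4.

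Of 26 further prostanoid genes, which include phospholipases, other synthases and receptors, transporters and reductases, 22 were measured. None was called for E2 in PEO1 and 1 rose in PEO4, the efflux pump ABCC4 that can export prostaglandins (0.21 ± 0.05, limma adjusted p = 0.0217). With 4OHT+E2 against E2, ABCC4 fell by 0.20 in PEO4 (adjusted p = 0.0171), and the carbonyl reductase CBR3 rose by 0.26 (adjusted p = 0.0135). Without 4OHT+E2 replicates 3 and 4, 0 of the 22 were called there. Of all probe sets 1.44% were called for E2 in PEO4 and 4.25% for 4OHT+E2 against E2, so 1 and 2 of 22 lay near the background.

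In PEO1 with 4OHT+E2 against E2, HPGDS, a prostaglandin D2 synthase, rose by 0.36 ± 0.09 (limma adjusted p = 0.0107). The cytosolic phospholipase PLA2G4A, which frees arachidonic acid, was lower there (-0.37 ± 0.12, adjusted p = 0.0456). PLA2G4A was also lower with 4OHT alone in PEO4 (-0.36 ± 0.09, adjusted p = 0.0243). The remaining calls in PEO4 were AKR1C3, which reduces prostaglandins and steroids, with ICI+E2 against E2 (-0.31, adjusted p = 0.0212) and the phospholipase PLA2G6 with vehicle against 0 h (-0.17, adjusted p = 0.0492). The latter was not among calls without 0 h replicate 4 and ICI replicate 1, where 0 of 22 passed. The 2 calls of 22 in PEO1 stand beside 9.99% of all probe sets. The single calls in PEO4 stand beside 3.93% for 4OHT, 1.44% for ICI+E2 against E2 and 4.89% for vehicle against 0 h. The list's medians lay between -0.05 and 0.07 in the 16 comparisons within lines.

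All 10 lipoxygenase and leukotriene genes were measured, and 2 calls were made within lines. LTA4H, which makes leukotriene B4, was lower with 4OHT in PEO1 (-0.12 ± 0.03, limma adjusted p = 0.0276), and the leukotriene receptor CYSLTR2 was higher with 4OHT+E2 than with E2 in PEO1 (0.27 ± 0.09, adjusted p = 0.0406). These are 1 of 10 in each comparison, where 4.21% and 9.99% of all probe sets were called. For CYSLTR2 the test between lines was called as well (-0.45 ± 0.11, adjusted p = 0.0217), 1 of 10 against 1.4% of all probe sets.

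All 17 listed transcription factors and RNA-binding proteins known to act on PTGS2 were measured. With E2, CEBPD alone was called, higher by 0.22 ± 0.06 in PEO1 (limma adjusted p = 0.0316) and by 0.57 ± 0.08 in PEO4 (adjusted p = 3.05e-05). That is 1 of 17 in each line, where 1.14% and 1.11% of all probe sets were called higher. With ICI+E2 against E2, 3 of the 17 were lower in PEO1 and 1 in PEO4, against 1.19% and 0.968% of all probe sets called lower. CEBPD was among them in both lines, at -0.28 in PEO1 (limma adjusted p = 0.00283) and at -0.59 in PEO4, where its adjusted p was 2.9e-05. CEBPD was thus called for E2 in both lines and PTGS2 in PEO1. FOS, part of the AP-1 factor, was also lower with ICI+E2 than with E2 in PEO1 (-0.67 ± 0.14, adjusted p = 0.00458).

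With 4OHT alone 4 of the 17 rose in PEO1 and 2 in PEO4, and 0 fell in either. The AP-1 member FOSL1 led in both, by 0.69 ± 0.09 in PEO1 (limma adjusted p = 2.74e-05) and 1.05 ± 0.12 in PEO4 (adjusted p = 2.21e-06). FOS rose by 0.52 and 0.64, and in PEO1 the NF-kB subunits NFKB1 (0.33) and RELA (0.15) rose too. The medians of the list were 0.07 and 0.08, against -0.03 and 0.00 over all probe sets, of which 1.4% and 2.08% were called higher.

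With 4OHT+E2 against E2, 4 of the 17 were higher and 1 lower in PEO1, and 5 were higher and 1 lower in PEO4. Without PEO4 4OHT+E2 replicates 3 and 4 the PEO4 counts were 3 and 1. The values of named genes below come from all arrays. Of all probe sets 3.16% were called higher in PEO1 and 2.72% in PEO4. FOSL1 was higher by 0.62 ± 0.09 in PEO1 and 1.19 ± 0.12 in PEO4 (limma adjusted p = 3.51e-05 and 8.11e-08). That response differed between the lines by 0.58 ± 0.15 (adjusted p = 0.0353). NFKB1 was higher by 0.46 in PEO1 (adjusted p = 2.04e-06). In PEO4 ZFP36, which promotes decay of AU-rich transcripts such as that of PTGS2, was higher by 0.35 (adjusted p = 5.83e-05). In PEO1 FOSL1 and NFKB1 were thus higher in the comparison in which PTGS2 was lower. CEBPB was the 1 of the 17 called lower there (-0.12 ± 0.04, limma adjusted p = 0.0251). In PEO4 CEBPB was called higher (0.20 ± 0.05, adjusted p = 0.0112), and its response differed between the lines by 0.32 ± 0.06 (adjusted p = 0.000222). CEBPD was the 1 called lower in PEO4 (-0.49 ± 0.08, adjusted p = 9.83e-05). Of the 17, 2 such line differences were called positive and 1 negative, against 0.981% and 0.414% of all probe sets. The negative one was that of JUN (-0.30 ± 0.07, adjusted p = 0.0242). Any part of these genes in the PTGS2 values was not tested.

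Of 12 listed genes that respond to cyclic AMP, through which EP2 and EP4 signal, 9 were measured. The list was chosen with earlier results of these data known, so its counts are a description and no test. With 4OHT 7 of 9 rose in PEO1 and 3 in PEO4, with medians of 0.43 and 0.18 against -0.03 and 0.00 over all probe sets. Of all probe sets 1.4% and 2.08% were called higher with 4OHT, and 3.16% and 2.72% with 4OHT+E2 against E2. With 4OHT+E2 against E2, 8 of 9 rose in PEO1 and 6 in PEO4, with medians of 0.64 and 0.41 against -0.01 and 0.00. The orphan receptor NR4A3 was among them (1.77 ± 0.15 in PEO1, limma adjusted p = 5.51e-09, and 1.97 ± 0.16 in PEO4, adjusted p = 1.76e-09). So was the growth factor EREG (0.92 ± 0.10, adjusted p = 7.18e-07, and 1.47 ± 0.11, adjusted p = 3.86e-10).

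Without PEO4 4OHT+E2 replicates 3 and 4, the cyclic AMP list had 6 higher and 1 lower in that PEO4 comparison. With E2 alone 0 of the 9 were called in PEO1 and 1 in PEO4, the kinase SIK1 (0.28 ± 0.06, limma adjusted p = 0.0117). Of all probe sets 1.5% and 1.44% were called there. With ICI alone none of the 9 was called in either line, against 0.0585% and 0.0765% of all probe sets. Over the 3 h of vehicle 0 of 9 rose in PEO1 and 4 in PEO4, the latter also without 0 h replicate 4 and ICI replicate 1, where 4.38% and 3.01% of all probe sets were called higher.

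Between the antagonists PTGS2 itself was called in 1 of the 4 comparisons. Without E2, 6 of 9 cyclic AMP genes were called higher with 4OHT than with ICI in PEO1 and 2 in PEO4, and with E2 7 and 5. Of the 17 PTGS2 regulators 4 and 3 were called higher without E2 and 3 and 4 with it, and 0 of either list were lower. Of all probe sets 1.24% and 0.918% were called higher without E2 in PEO1 and PEO4, and 1.08% and 2.16% with it. Without PEO4 4OHT+E2 replicates 3 and 4 the counts with E2 in PEO4 were 5 and 3. Over the 3 h of vehicle 2 regulators rose and 1 fell in PEO1, and 3 rose and 2 fell in PEO4. Of all probe sets 4.38% rose and 1.28% fell in PEO1, and 3.01% and 1.88% in PEO4. The cyclic AMP genes answer to other signals too, so their counts are no measure of receptor activity.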

How the data were processed

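The values used are the log2 expression levels the authors deposited in the series table, made by RMA, per the submitters' processing notes; the sources used here give no version. Treatments and doses come from the labels and the series text, which defines the PEO4 label Tam as 4-hydroxytamoxifen. That the lines were normalized apart is an assumption from the array medians. The table held 22277 probe sets, of which 62 Affymetrix controls served only as checks. The annotation table gave 1 symbol for 19064 probe sets, several for 1043 and none for 2108, and 19052 matched RefSeq. Scanner files and detection calls were not used here.

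Each line was fitted with limma 3.58.1 in R 4.3.3 over its 28 arrays, with 7 group means, 21 residual degrees of freedom and no covariates. Differences between lines came from 1 fit over 56 arrays. All adjusted p-values are limma's, by Benjamini-Hochberg over 22215 probe sets. A gene of a list is represented by its probe set of highest mean. Up to 4 called genes per list and comparison were eligible to be named, by smallest adjusted p. Of these the text names those that bear on the members. CEBPB ranked below the first 4 for 4OHT+E2 against E2 in each line and is named there outside this rule. It was eligible for the line difference. The members and lists were chosen with earlier results of these data known, so counts of calls among them are descriptions and no independent support. The fit was tested on simulated data. The number of arrays limits the precision: the median SE was 0.07 in PEO1 and 0.08 in PEO4. Alternatives were quantile normalization, trend and robust variance, a filter on the dimmest 40 percent, 1 probe set per gene, the replicate block, array weights, only the compared groups, and leaving out single or outlying arrays.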

Additional observations from a re-analysis of the deposited data

Results flagged for a closer look

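In 224 groups of 4 arrays (16 probe sets in 14 groups), 20 had 1 array far from the other 3, which is 8.93%, where chance gives about 5%. An array counts as far when its gap to the nearest of the others takes up more of the group's range than a Dixon test at 95% allows.

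For PTGS1, 205127_at read 6.41 on PEO1 vehicle replicate A (others from 6.82 to 6.90), 6.98 on PEO4 ICI replicate 1 (7.25 to 7.30) and 7.36 on PEO4 4OHT replicate 4 (7.181 to 7.183). On that last array 205128_x_at read 9.62 (9.53 to 9.54). Probe set 215813_s_at read 5.91 on PEO1 ICI+E2 replicate D (5.64 to 5.68) and 9.47 on PEO4 ICI replicate 2 (9.25 to 9.27).

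PTGS2 read 5.85 on PEO4 E2 replicate 3 (others 5.53 to 5.59). PTGES 207388_s_at read 7.62 on PEO1 4OHT+E2 replicate C (7.403 to 7.429), 7.84 on PEO4 0 h replicate 4 (8.12 to 8.16) and 8.17 on PEO4 ICI+E2 replicate 4 (8.04 to 8.06). PTGER2 read 8.42 on PEO1 ICI+E2 replicate B (8.67 to 8.71) and 9.88 on PEO4 4OHT replicate 1 (9.66 to 9.68). PTGER4 204896_s_at read 5.95 on PEO1 0 h replicate B (5.87 to 5.88).

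HPGD 203914_x_at read 5.03 on PEO4 4OHT+E2 replicate 2 (others 4.85 to 4.87), and 211549_s_at read 4.52 on PEO1 ICI replicate D (4.335 to 4.343). PTGIS 208131_s_at read 8.01 on PEO1 vehicle replicate D (8.10 to 8.11) and 7.93 on PEO1 0 h replicate A (8.0 to 8.005). PTGIS 210702_s_at read 7.12 on PEO4 vehicle replicate 2 (6.85 to 6.87), and 211892_s_at read 6.41 on PEO1 E2 replicate D (6.203 to 6.221) and 7.35 on PEO4 E2 replicate 3 (7.495 to 7.506). Of these arrays, PEO4 ICI replicate 1 and 0 h replicate 4 also had wide gaps between the ACTB probe sets.

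For PTGS2, 2 differences between the lines in response, PEO4 minus PEO1, passed limma's test. For adding 4OHT to E2 it was 0.92, called in all 24 alternatives. For E2 it was -0.69 with an adjusted p of 0.04995, which stayed under the threshold in only 3 of 16 fits that left out 1 array and was 0.0538 with the replicate block.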

How the results depend on the processing

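Of 347 counts of called members recomputed under alternatives, 280 kept within 1.5 times of the value above and 67 did not, and 3 of 20 comparisons had no moved count. No called difference changed sign. The number of members called became 1 for PEO1 vehicle versus 0 h after quantile normalization, which moved no median over all probe sets by more than 0.0242, and 2 for PEO1 4OHT with trend and robust variance and with 1 probe set per gene. Dropping the dimmest 40 percent left 5 of 16 members in PEO1 and 9 in PEO4. PTGS2 was not among them, so counts became 0 for PEO1 E2, PEO4 4OHT+E2 versus ICI+E2, PEO4 vehicle versus 0 h and the line differences of E2 and of 4OHT+E2 versus E2, 1 for PEO1 ICI+E2 versus E2 and vehicle versus 0 h, and 2 for PEO1 4OHT.

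Array weights gave 2 for E2 in each line, 1 for 4OHT in each line, 4 for PEO4 ICI, 1 and 3 for 4OHT versus ICI in PEO1 and PEO4, 3 for PEO4 4OHT+E2 versus E2, 2 for PEO4 4OHT+E2 versus ICI+E2, 3 for PEO4 vehicle versus 0 h, and 3 and 2 for the line differences of 4OHT and of 4OHT+E2 versus E2. Fitting only the compared groups gave 1 for PEO1 4OHT+E2 versus E2, 1 for PEO4 E2 and 0 for PEO4 4OHT+E2 versus E2. Without PEO4 0 h replicate 4 and ICI replicate 1 the counts were 1 for PEO4 E2 and 1 for the 4OHT line difference. Without PEO4 4OHT+E2 replicates 3 and 4, an alternative chosen after seeing the data, they were 0 for 4OHT+E2 versus E2 and 0 versus ICI+E2. Beyond the missing PTGS2 and the fewer arrays or probe sets named, the causes were not tested.

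With the replicate block the counts were 0 for PEO4 4OHT+E2 versus E2 and 0 for the E2 line difference, and no other count moved. The letters and numbers were not taken as pairing arrays in the main fits. The rule asked the deviations of every same-label pair to correlate above 0.1, which a real pairing could also fail, so it cannot exclude one. In PEO1 24 of 84 pairs did (-0.38 to 0.32), with a median of 0.01 against -0.0002 for other labels. In PEO4 36 of 84 did (-0.57 to 0.53), with a median of 0.08 against -0.01. Yet 12 and 18 of 28 arrays correlated best with their own label, a hint from the data, not the design, that some share more than a number.

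When each array was left out in turn, counts ran from 1 to 2 for PEO1 E2 and vehicle versus 0 h, 2 to 4 for PEO1 4OHT+E2 versus E2, 0 to 1 for PEO1 4OHT, PEO1 4OHT+E2 versus ICI+E2, PEO4 E2, PEO4 4OHT versus ICI and the line differences of E2 and 4OHT, 0 to 2 for PEO4 ICI and PEO4 vehicle versus 0 h, and 0 to 3 for PEO4 4OHT+E2 versus E2.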
